A study of Mus musculus with 4 samples.

Results

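The region described here is a block of 5 Mb on mouse chromosome 8, chr8:69000000-74000000 in mm10, around the genes Comp, Crtc1, Cope, Lsm4 and Klf2. Its members are all peaks of an H1foo list and an AE4 list whose centre lies between those bounds. They were 995 of the 97825 H1foo peaks and 775 of the 47493 AE4 peaks, or 1770 of 145318 peaks in all. The block was chosen by the density and the scores of these same lists, so its numbers are a description and carry no test. The block also held the middle of 133 of 21774 protein-coding genes, and peaks are described by bins of 100 kb and by gene.

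Chromatin immunoprecipitation and sequencing had been done in embryonic stem cells of the mouse strain 129S4/SvJae. All 4 libraries came from cells that overexpress a fusion of mouse H1foo with GFP, and no treatment was given. For 2 libraries the antibody was a rabbit polyclonal against H1foo made in-house, and for the other 2 it was AE4, a mouse monoclonal from Santa Cruz used for somatic H1. Chromatin was prepared with an enzymatic kit and the libraries with a KAPA kit, per the labels. There was no group without the H1foo fusion, so nothing below compares cells with and without H1foo.

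Linker histones of the H1 family bind the nucleosome at its linker DNA and help fold chromatin. Somatic H1 variants are present in most cells, whereas H1foo is the variant of the oocyte and early embryo. Active promoters are typically open and poor in H1.

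Each antibody had 1 deposited list, with no value per library, so no spread between replicates and no p-value could be given. Their depth is unknown. The sources used here do not say whether peaks were called against an input control or whether AE4 binds H1foo. The score of a peak is the authors' value from the peak caller. Its scale is not named and both lists start at 50. It is used here only to describe and rank peaks within a list. Intervals are exact binomial 95% intervals over peaks, genes or promoters, and cover the counting of these items only. The sources used here do not give the number of copies of chromosome 8 in these cells, and its part in the densities was not tested.

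Promoter sequences are shown first, because the lists parted at the starts of genes. RefSeq promoter sequences on GRCm38.p6, whose chromosomes have the coordinates of mm10, were matched by gene for all but 20 of the 133 genes. Each entry holds 300 bases, 250 before and 50 after a start site. The 250 bases before the start are printed 5′ to 3′ on the strand of the gene. Capitals mark 3 motifs, searched on both strands, so that reverse complements are in capitals too. One is GGGCGG, the core of the GC box. Another is CACCC, the core of many Krüppel-like factor sites. The last is TATAAA, the TATA box. A match to 1 motif may overlap a match to another. Shown are the genes that define the block, where the table holds them, and the genes with the highest-scoring peak of each list over the window. Comp and Lsm4 had no entry.
Crtc1 (chr8:70439574-70439823, minus strand): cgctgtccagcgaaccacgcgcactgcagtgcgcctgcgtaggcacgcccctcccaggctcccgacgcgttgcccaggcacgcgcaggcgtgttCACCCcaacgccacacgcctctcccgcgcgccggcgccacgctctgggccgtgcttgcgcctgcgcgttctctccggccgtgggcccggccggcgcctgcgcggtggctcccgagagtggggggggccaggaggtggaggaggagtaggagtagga
Cope (chr8:70302517-70302766, plus strand): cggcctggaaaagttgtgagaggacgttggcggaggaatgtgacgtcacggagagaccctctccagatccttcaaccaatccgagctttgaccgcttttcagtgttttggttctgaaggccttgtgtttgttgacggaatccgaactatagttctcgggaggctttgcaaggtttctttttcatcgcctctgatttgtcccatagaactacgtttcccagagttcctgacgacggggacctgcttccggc
Klf2 (chr8:72318812-72319061, plus strand): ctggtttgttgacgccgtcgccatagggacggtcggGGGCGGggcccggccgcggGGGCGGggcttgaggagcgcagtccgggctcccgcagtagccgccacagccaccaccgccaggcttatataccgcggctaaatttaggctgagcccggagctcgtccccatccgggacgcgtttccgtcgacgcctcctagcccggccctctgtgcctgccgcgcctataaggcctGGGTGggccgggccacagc
Mast3 (chr8:70792434-70792683, minus strand): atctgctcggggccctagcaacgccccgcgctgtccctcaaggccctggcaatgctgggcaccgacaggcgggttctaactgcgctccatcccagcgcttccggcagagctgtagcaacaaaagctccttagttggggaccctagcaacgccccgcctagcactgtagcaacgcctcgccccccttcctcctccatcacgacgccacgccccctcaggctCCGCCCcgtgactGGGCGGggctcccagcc
Rab3a (chr8:70754453-70754702, plus strand): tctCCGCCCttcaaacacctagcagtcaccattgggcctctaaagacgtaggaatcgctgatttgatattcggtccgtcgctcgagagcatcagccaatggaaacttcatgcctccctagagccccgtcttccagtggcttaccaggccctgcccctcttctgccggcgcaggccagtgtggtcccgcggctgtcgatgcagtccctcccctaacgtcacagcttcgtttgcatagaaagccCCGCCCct
Ushbp1 (chr8:71395802-71396051, minus strand): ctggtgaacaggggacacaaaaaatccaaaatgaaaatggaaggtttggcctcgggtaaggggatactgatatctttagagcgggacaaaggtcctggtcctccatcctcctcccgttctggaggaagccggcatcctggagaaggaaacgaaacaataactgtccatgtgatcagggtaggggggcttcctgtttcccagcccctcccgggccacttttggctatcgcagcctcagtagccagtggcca
Pde4c (chr8:70723814-70724063, plus strand): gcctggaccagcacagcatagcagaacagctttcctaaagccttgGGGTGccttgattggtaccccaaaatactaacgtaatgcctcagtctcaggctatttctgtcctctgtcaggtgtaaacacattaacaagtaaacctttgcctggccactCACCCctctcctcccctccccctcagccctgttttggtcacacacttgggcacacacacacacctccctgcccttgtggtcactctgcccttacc
The first 5 of these promoters had 15 to 33 CpG dinucleotides in 250 bases, and none of them met an AE4 peak in its window. Those of Ushbp1 and Pde4c had 7 and 1 and lay under AE4 peaks with scores of 249 and 233. All but that of Ushbp1 are referred to again beside their genes.

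The block was covered densely by peaks of both lists. H1foo had 199 peaks per Mb, and its peaks covered 1165129 bp or 23.3% of the block. AE4 had 155 peaks per Mb and covered 686317 bp or 13.7%. The median H1foo peak was 875 bp wide and the median AE4 peak 746 bp, against 560 and 466 bp over all assembled chromosomes. The median score in the block was 1.54 times that of the whole H1foo list and 1.43 times that of the whole AE4 list. Of the H1foo peaks in the block, 11.8% were at least 2 kb wide, against 1.37% of the whole list. Of the AE4 peaks, 28 or 3.61% were that wide, against 0.516% of the whole list. Since the block was chosen on these lists, these shares are given for size only.

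**Figure D1:**
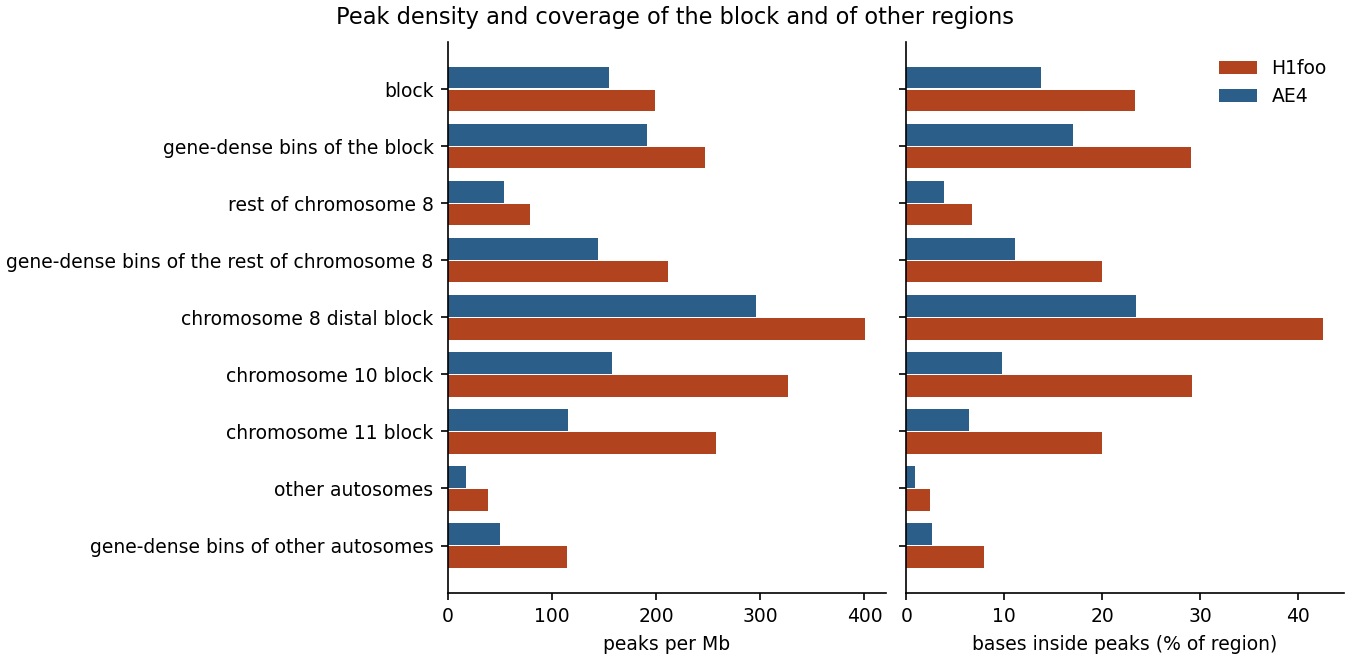
Peak centres per Mb (left) and percent of bases inside peaks (right) of H1foo and AE4 in the block and in other regions; gene-dense bins are 1 Mb bins with 15 or more protein-coding genes, and bars have no error because each list is a single table. The bars of the block end at 199 and 155 peaks per Mb, above the rest of chromosome 8 and below the block at the distal end of the same chromosome.

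Chromosome 8 was dense in both lists outside the block as well. The rest of the chromosome held 78.3 H1foo and 53.3 AE4 peaks per Mb, and the other autosomes held 38.3 and 17.6. The block thus had 2.54 times the H1foo density and 2.91 times the AE4 density of the rest of its chromosome, and 5.20 and 8.83 times those of the other autosomes. Among 1 Mb bins with at least 15 genes, the 4 bins of the block held 246.8 H1foo and 191 AE4 peaks per Mb. The 20 such bins in the rest of chromosome 8 held 212 and 144, and the 423 such bins of the other autosomes held 115 and 49.5. The block's bins were thus 1.17 and 1.33 times as dense as those of its own chromosome, and 2.15 and 3.86 times as dense as those of the other autosomes. In covered bases these ratios were 1.45, 1.54, 3.65 and 6.45. The gene-dense bins of the block also held more genes, 33 per Mb against 23.8 and 25.2, and the part of gene number in these ratios was not tested.

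Other dense blocks gave a scale for these values. A block of 5 Mb near the distal end of chromosome 8 held 400.2 H1foo and 295 AE4 peaks per Mb. On chromosome 10, the span from 79 to 82 Mb held 327 and 158, and a block of 4 Mb on chromosome 11 held 257 and 115. The distal block of chromosome 8 was the densest of these 4 in both lists. In peaks per Mb, the block at 69 to 74 Mb was the lowest of them for H1foo, and for AE4 it lay just below the chromosome 10 block and above the chromosome 11 block. In covered bases these orders changed: its 23.3% for H1foo lay above the 19.9% of the chromosome 11 block, and its 13.7% for AE4 above the 9.76% of the chromosome 10 block. Its number of H1foo peaks per AE4 peak was 1.28, close to the 1.36 of the distal block and the 1.47 of the rest of chromosome 8. The chromosome 10 and 11 blocks had 2.07 and 2.23, and the other autosomes 2.18. The balance of the lists in the block was thus nearer to that of its own chromosome than to that of dense blocks elsewhere, a difference that was not tested.

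At both bounds the peaks were sparse. The last H1foo peak before the lower bound had its centre at 68924473 and a score of 77.2, and the first inside it had its centre at 69059918 and a score of 62.3. The last H1foo peak inside the upper bound lay at 73905251 with a score of 60.9, and the next beyond it at 74520119 with 115. The AE4 peaks on either side of the lower bound lay at 68807512 and 69014001, with scores of 58.7 and 83.7. Those on either side of the upper bound lay at 73959039 and 74069267, with scores of 56.0 and 60.8. The 1 Mb before the block held 22 H1foo and 9 AE4 peaks, and the 1 Mb after it 9 and 8. Apart from the bin after the lower bound, which held 6 AE4 peaks, no bin of 100 kb at the bounds held more than 2 peaks of a list.

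Peaks were not spread evenly inside the block but lay in 3 dense stretches with poor stretches around them. Of 50 bins, the 23 with at least 20 H1foo peaks held 866 H1foo peaks or 87.0% and 653 AE4 peaks or 84.3%. H1foo reached its highest number, 52 peaks, in the bins that start at 70.1, 70.4 and 71.5 Mb. AE4 reached its highest number, 43 peaks, in the bin at 70.1 Mb, which holds Ncan, Rfxank, Borcs8, Mef2b and Slc25a42 among others. H1foo outnumbered AE4 in 32 bins, AE4 outnumbered H1foo in 9, the numbers were equal in 6, and 3 had no peak of either list. These counts come from lists of unequal length and were not recomputed by bin at equal length. The H1foo list was also cut to as many peaks as the AE4 list, keeping the highest scores. Then 749 of its peaks stayed in the block and the ratio of H1foo to AE4 peaks was 0.967. In 8 of the 9 bins with more AE4 peaks, H1foo had fewer than 10. Bins with many genes had many peaks of both lists.

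**Figure D2:**
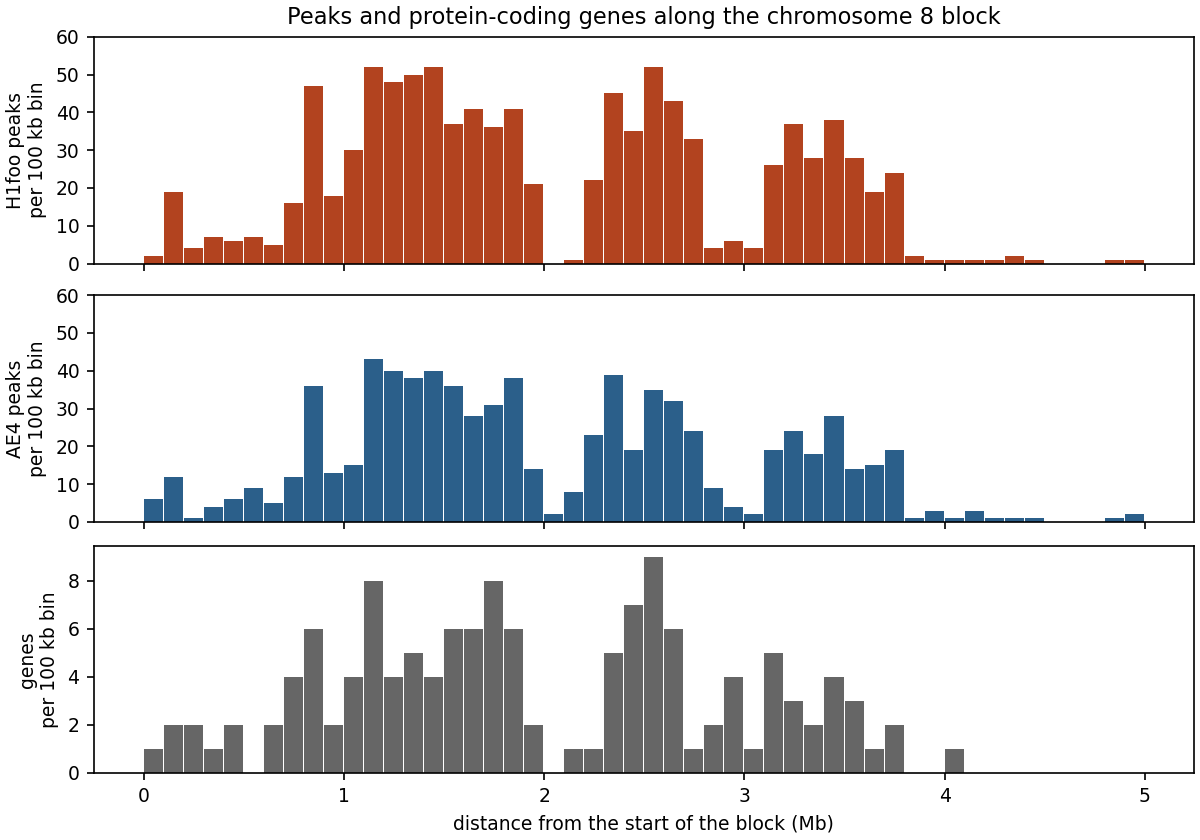
Numbers of H1foo peaks (top), AE4 peaks (middle) and protein-coding genes (bottom) in each of the 50 bins of 100 kb, against the distance from the start of the block in Mb. The 3 dense stretches stand out in all panels, and the last 1.2 Mb are nearly empty of peaks and genes.

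Across the 50 bins, the numbers of H1foo and AE4 peaks had a Spearman rank correlation of 0.955. The correlation was 0.872 between H1foo peaks and genes and 0.833 between AE4 peaks and genes. These values are descriptions: neighbouring bins share genes and chromatin, and both lists come from the same cells. In bins with 6 or more genes, the median number of H1foo peaks was 41 in the block, 34 in the rest of chromosome 8 and 21 in the other autosomes. The medians of AE4 were 35, 26.5 and 8. In bins with 1 or 2 genes they were 7, 7 and 2 for H1foo and 9, 5 and 1 for AE4. Bins of the block with few genes thus held about as many H1foo peaks as such bins in the rest of the chromosome.

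Bounds for the stretches were set after the bins had been seen. The densest stretch, from 69.8 to 71.0 Mb, held 61 genes, 473 H1foo peaks and 372 AE4 peaks. H1foo peaks covered 54.4% of it and AE4 peaks 31.0%, so that more bases lay inside an H1foo peak than outside. Comp, Crtc1, Cope and Lsm4 all lie there. The next stretch, from 71.2 to 71.8 Mb, had 29 genes, 230 H1foo and 172 AE4 peaks, with 44.5% and 24.1% of its bases covered. The stretch from 72.1 to 72.8 Mb, which holds Klf2, had 20 genes, 200 H1foo and 137 AE4 peaks, and 26.5% and 15.3% of its bases were covered.

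The poor stretches were gene-poor in part. From 69.0 to 69.8 Mb, 14 genes went with 66 H1foo and 55 AE4 peaks. From 71.0 to 71.2 Mb, where Gm7827 is the only protein-coding gene, there was 1 H1foo peak against 10 AE4 peaks, and none of them overlapped. From 71.8 to 72.1 Mb, 7 genes went with 14 H1foo and 15 AE4 peaks. The last 1.2 Mb held 11 H1foo and 14 AE4 peaks. The longest gap between peaks lay there too, 455902 bp for H1foo (73421319 to 73877220) and 342574 bp for AE4 (73492916 to 73835489). Over the whole block, 9 gaps between H1foo peaks and 15 between AE4 peaks were 50 kb or longer. Of all gaps, 60.4% between neighbouring H1foo peaks and 42.0% between AE4 peaks were under 1 kb. Such neighbouring peaks of a list may therefore be pieces of a single enriched stretch.

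Most AE4 peaks of the block lay on H1foo peaks, and over 4 in 10 H1foo peaks lay apart from AE4. Of the AE4 peaks, 657 of 775 or 84.8% (82.1 to 87.2%) shared at least 1 bp with an H1foo peak, against 51.2% over all assembled chromosomes. The share was 66.0% in the rest of chromosome 8 and 85.6% in its distal block. Of the H1foo peaks, 570 of 995 or 57.3% (54.1 to 60.4%) overlapped an AE4 peak, against 24.1% over all assembled chromosomes, 42.2% in the rest of chromosome 8 and 56.1% in the distal block. Of the AE4 peaks, 349 or 45.0% lay wholly inside an H1foo peak, against 21.7% over all chromosomes. Counted in bases, 83.2% of the AE4 bases and 49.0% of the H1foo bases of the block lay in the other list. Wide peaks meet others more readily, and where peaks cover much of the sequence more of them meet by position alone; how much this added was not tested.

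For AE4, the regions differed most in overlap among peaks with low scores. AE4 peaks with scores from 50 to 75 overlapped H1foo in 70.5% of 271 cases in the block (64.7 to 75.8%), 51.6% in the rest of chromosome 8 and 39.6% in the other autosomes. At scores of 200 or more, the AE4 shares were 97.8%, 96.9% and 97.8%. H1foo peaks with scores from 50 to 75 overlapped AE4 in 29.6% of 253 cases in the block (24.1 to 35.7%), 24.3% in the rest of the chromosome and 13.3% in the other autosomes. At 200 or more, they did so in 88.8%, 86.9% and 65.8%. Neighbouring peaks of 1 list are not replicates, so these shares and intervals describe the lists and test no difference between regions.

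**Figure D3:**
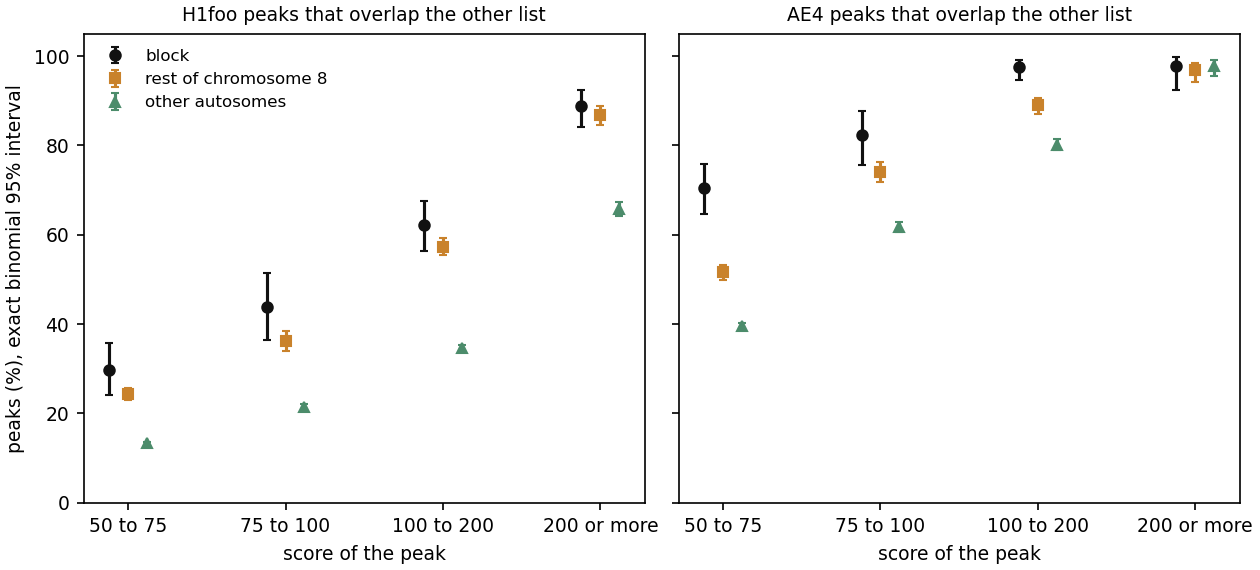
Percent of H1foo peaks (left) and AE4 peaks (right) that overlap the other list, by the score of the peak, in the block, the rest of chromosome 8 and the other autosomes; error bars are exact binomial 95% intervals over peaks. The AE4 shares lie apart at scores of 50 to 75 (70.5%, 51.6% and 39.6%) and come together at 200 or more.

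Shared peaks were wider and scored higher than unshared ones, in the block as over all assembled chromosomes. Shared H1foo peaks had a median width of 1128 bp and a score of 157, and the 425 unshared ones had 718 bp and 80.9. Shared AE4 peaks had 812 bp and 99.7, and the 118 unshared ones 545 bp and 64.8. Over all assembled chromosomes, shared and unshared H1foo peaks had median widths of 706 and 528 bp and scores of 98.3 and 68.5. For AE4 these were 534 and 421 bp, and 72.1 and 59.25. Of the H1foo peaks, 116 or 11.7% met at least 2 AE4 peaks, against 1.67% over all chromosomes.

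The peaks with the highest scores lay in the densest stretch and the next. Among the 100 highest scores of each whole list, the block held 13 H1foo and 12 AE4 peaks. All 13 of the H1foo peaks and 11 of the AE4 peaks overlapped a protein-coding gene. Most peaks of the block lay at genes. By centre, 16.8% of its H1foo and 15.6% of its AE4 peaks lay neither inside a gene nor within 2 kb of a gene boundary. The counts are thus not read as particular to high scores. The highest H1foo score, 1626, belonged to a peak of 6725 bp at chr8:70380961-70387685, which runs from Comp into Crtc1 and met 4 AE4 peaks. The second, with 1323, was the widest H1foo peak of the block, 8533 bp at chr8:70788311-70796843 in Mast3. The third, with 1195, was a peak of 6875 bp at chr8:70674017-70680891 over Lsm4. The highest AE4 score, 719, lay outside genes, in a peak of 4395 bp at chr8:70685960-70690354 between Lsm4 and Jund, and an H1foo peak with a score of 736 covered 98.0% of it. The second AE4 peak, with 582, lay in Cope at chr8:70304273-70306820.

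Strong peaks of 1 list alone were few. At scores of 200 or more, 88.8% of the H1foo peaks overlapped AE4, against 86.9% in the rest of chromosome 8 and 65.8% in the other autosomes. Of the 250 such H1foo peaks in the block, 28 met no AE4 peak. The highest of the 28 was a peak of 4268 bp over Cilp2 at chr8:69882791-69887058 with a score of 768. It was the only 1 of the 100 highest H1foo peaks of the whole list that met no AE4 peak. Of the 92 AE4 peaks with a score of 200 or more, 2 met no H1foo peak. The overlapping share, 97.8%, was the same in the other autosomes. These 2 AE4 peaks lay in Gm5373 (chr8:71836892-71839813, score 268) and Gm7827 (chr8:71147056-71149217, score 240), 2 gene models in poor stretches.

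The genes that define the block differed among themselves. Comp encodes a cartilage matrix protein (NCBI gene 12845, chr8:70373548-70382066). It had 5 H1foo and 5 AE4 peaks over its span with 2 kb on both sides, and 75.7% and 33.1% of its span were covered. Crtc1 encodes a coactivator of CREB (NCBI gene 382056, chr8:70382352-70439702). It had 34 and 33 peaks, with 78.4% and 53.9% of its 57.4 kb covered. These neighbours share the highest H1foo peak, so they are not independent. At the Crtc1 promoter printed above, an H1foo peak with a score of 84.7 covered the start site, and the nearest AE4 peak was 3066 bp away.

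Cope encodes a subunit of the COPI coat of transport vesicles (NCBI gene 59042, chr8:70302767-70313002). It had 7 H1foo and 5 AE4 peaks, and 72.7% and 63.7% of its span were covered. Its promoter was clear of both, with the nearest H1foo peak 1255 bp and the nearest AE4 peak 1506 bp from the start site. Lsm4 encodes a subunit of the ring that binds a spliceosomal small nuclear RNA (NCBI gene 50783, chr8:70673231-70678752). It had 3 peaks of each list, and 86.2% and 48.9% of its span were covered. Klf2 encodes a zinc finger factor of the naive pluripotency network (NCBI gene 16598, chr8:72319062-72321654), and unlike these it had no covered base. The nearest H1foo peak began 845 bp beyond the end of the gene with a score of 199, and the nearest AE4 peak 1038 bp beyond it with 123. The Klf2 promoter, with 29 CpG and 2 GGGCGG motifs in the 250 bases shown, was more than 3 kb from the nearest peak of either list.

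Over all 133 genes, H1foo peaks were found at nearly every gene and AE4 peaks at most. A boundary peak is one that comes as near as 2 kb to the first or last base of a gene. H1foo had 1 at 125 genes or 94.0% (88.5 to 97.4%), against 44.9% of all 21774 genes and 70.4% in the rest of chromosome 8. AE4 had 1 at 103 genes or 77.4% (69.4 to 84.2%), against 24.1% of all genes and 49.8% in the rest of chromosome 8. Both lists had 1 at 102 genes, or 76.7%, against 21.6% of all genes. H1foo alone had 1 at 23 genes or 17.3%, against 23.3% of all genes. AE4 alone had 1 at Zfp617 only, or 0.752%, against 2.58%. Neither had 1 at 7 genes or 5.26%, against 52.5% of all genes, among them D130040H23Rik, Zfp868, Zfp964, Zfp869, Zfp709 and Zfp961. Genes are close together here and share peaks, so they are not replicates.

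The covered part of the genes differed more between the lists. The median gene had 59.6% of its span inside H1foo peaks and 25.7% inside AE4 peaks. In the rest of chromosome 8 these medians were 12.3% and 4.51%, and in the other autosomes 1.27% and 0%. At least 25% of the span was covered by H1foo in 104 of the 133 genes (78.2%) and by AE4 in 68 (51.1%). Over all genes these shares were 15.1% and 2.87%, and in the rest of chromosome 8 they were 35.8% and 19.0%. With 2 kb added on both sides, 97 genes had more H1foo peaks, 14 had more AE4 peaks and 20 had equal numbers above 0. These counts too come from lists of unequal length and were not recomputed at equal length. Only the peak numbers of the whole block were, with a ratio of H1foo to AE4 of 0.967. The 14 included Slc18a1, Fkbp8, Ell, Iqcn, Gm7827, Haus8, Ocel1, Nr2f6, Bst2, Gm5373, Zfp617, Ap1m1 and F2rl3. Of 103 genes of at least 5 kb, Pik3r2 had the largest covered share in both lists, 98.5% for H1foo and 70.8% for AE4.

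Further genes named for a high score, or for a large covered share among genes of at least 5 kb, follow. Iqcn had an H1foo peak with a score of 1106 within 2 kb, shared with its neighbour Gm3336, and 87.7% and 63.9% of its span were covered by H1foo and AE4. Niban3 had scores of up to 1068 and 324 and covered shares of 72.2% and 66.0%. Ssbp4, a single-stranded DNA-binding protein gene, reached 1036 and 437, with 80.7% and 46.9% covered. Mvb12a, which encodes a subunit of the ESCRT machinery, was covered for 87.7% and 60.5%, and Fkbp8, an immunophilin gene, for 75.4% and 63.3%. Ddx49, an RNA helicase gene next to Cope, shared the AE4 peak with the score of 582, and Mpv17l2 shared that of Rab3a, with 393.

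Long genes with few peaks lay in the poor stretches. Zfp930 (21.5 kb) and D130040H23Rik (32.3 kb) each had 1 H1foo peak and no AE4 peak, and were the only genes of at least 20 kb with peaks of 1 list alone. Gm10033 (27.0 kb) had 3 H1foo peaks and 1 AE4 peak, with 3.36% and 1.19% covered. Cyp4f18, a cytochrome gene of 21.2 kb, had 4 and 1, with 9.72% and 3.57% covered. Gm7827 (79.8 kb) had 1 H1foo peak against 7 AE4 peaks and 0.428% and 5.87% covered, a balance opposite to that of most genes of the block.

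**Figure D4:**
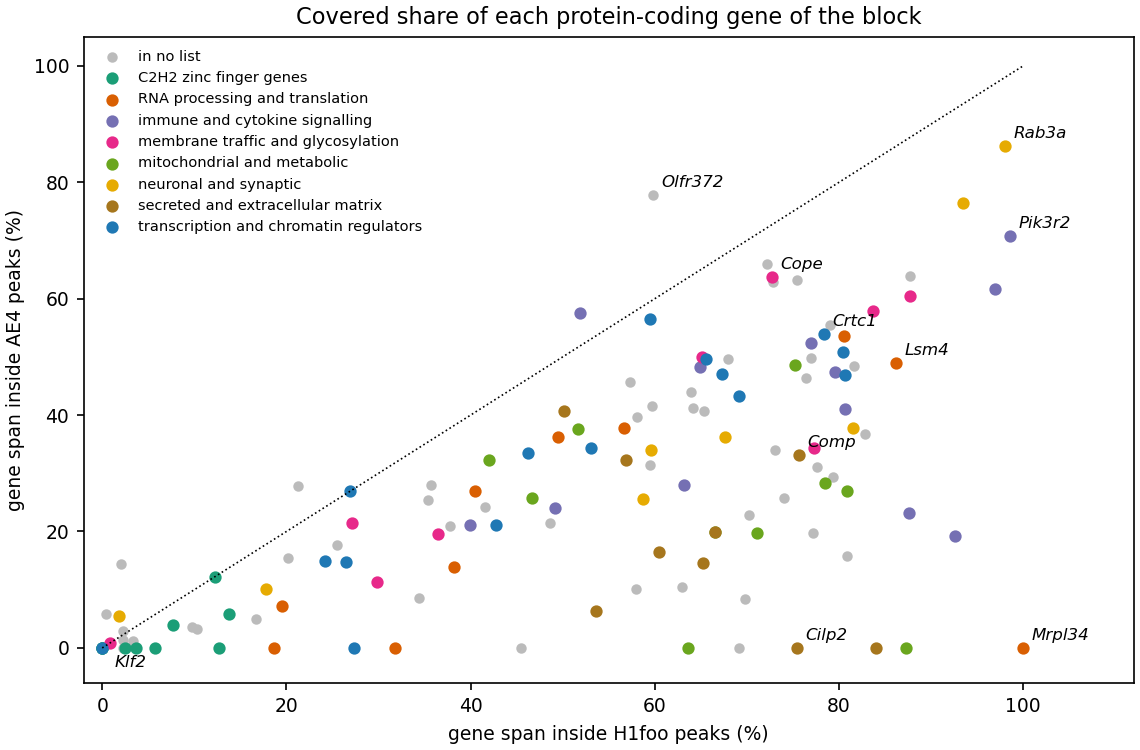
Percent of the span of each of the 133 protein-coding genes inside H1foo peaks (horizontal axis) and inside AE4 peaks (vertical axis), coloured by role list; the dotted line marks equal shares. Most genes lie below the line, C2H2 zinc finger genes lie near the origin, and Cilp2 and Mrpl34 lie on the horizontal axis with no base inside AE4 peaks.

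The genes are now given by role, in 8 lists that hold 83 of them. Counts per list stand against the block's own shares, 94.0% of genes with an H1foo and 77.4% with an AE4 boundary peak, and its medians of 59.6% and 25.7% covered; nothing is read as particular to a list. Transcription and chromatin regulators made the longest list. All 15 had a boundary peak of each list, and the median covered share was 53.1% for H1foo and 34.4% for AE4. Crtc1 had the most peaks. Ell, an elongation factor of RNA polymerase, had 25 H1foo and 27 AE4 peaks over 53.2 kb, with 65.5% and 49.6% covered. Jund, a subunit of AP-1, had 2 H1foo peaks and 1 AE4 peak near it, and 27.3% and 0% of its 2878 bp were covered. Med26, a Mediator subunit of like length to Ell, had 15 and 9 peaks and 26.5% and 14.7% covered. Long genes of this list thus ranged widely in both lists together.

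Among 10 genes of RNA processing and translation, all had an H1foo and 7 an AE4 boundary peak, close to the shares of the whole block, and the median covered shares were 45.0% and 20.4%. Upf1, the helicase of nonsense-mediated decay, had 15 H1foo and 11 AE4 peaks and 80.6% and 53.5% of its span covered. Sugp2, a protein with splicing factor domains, had 14 and 12 peaks with 40.5% and 26.9% covered. Mrpl34, a mitochondrial ribosomal protein gene, had 4 H1foo peaks and no AE4 peak within 2 kb, and its span of 828 bp lay wholly inside H1foo peaks. The 12 genes of the block with an H1foo peak and no AE4 peak within 2 kb had a median length of 2.59 kb, but Olfr372, of 1016 bp, had 1 AE4 peak. The part of length was not tested.

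The C2H2 zinc finger genes, which encode DNA-binding proteins and often lie in clusters, stood at the low end. Of 10, 4 had an H1foo and 2 an AE4 boundary peak, and the median covered share was 4.70% and 0%. They lie in the poor stretches at 69.2 to 69.8 and 71.8 to 72.1 Mb. Zfp963 had the most H1foo peaks of them, 3 against 1 AE4 peak, with 13.8% and 5.89% covered. Zfp868 had 2 of each and 12.2% of its span in each list. Zfp709 and Zfp961 had no peak of either list within 2 kb. For Zfp709 the nearest H1foo peak was 11334 bp away and the nearest AE4 peak 19369 bp, and for Zfp961 they were 7918 and 7768 bp away.

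The secreted and matrix genes showed the pattern of the whole block, with more of their span in H1foo than in AE4 peaks. All 9 had an H1foo and 6 an AE4 boundary peak, with medians of 65.2% and 16.5% covered. Ncan, a proteoglycan of brain matrix, had 14 and 10 peaks with 56.8% and 32.2% covered. Cilp2, a cartilage protein, had 5 H1foo peaks, a covered share of 75.5% and no AE4 peak within 2 kb; the nearest AE4 peak was 3135 bp away with a score of 69.5. Insl3, a testis hormone, had 3 H1foo peaks without an AE4 peak, and lies inside the span of Jak3. Gdf1, a growth factor of left-right patterning, has nearly the same span as the ceramide synthase gene Cers1, and both had 13 H1foo and 5 AE4 peaks.

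The 12 immune and cytokine genes had the highest median covered share of the 8 lists, 78.3% for H1foo and 44.2% for AE4. All 12 had an H1foo and 11 an AE4 boundary peak. Mast3, a kinase, had 13 and 9 peaks and 80.7% and 41.0% covered. Its promoter printed above lies inside the peak with the score of 1323, and the nearest AE4 peak, with a score of 522, stopped 621 bp from the start site. That start site, at 70792433, is an inner one, since the span of Mast3 on the minus strand begins at 70805048. Pde4c, a cyclic AMP phosphodiesterase, had 11 and 9 peaks and 63.2% and 28.0% covered, and both lists covered its promoter. Jak3, a kinase of cytokine receptors, had 9 and 4 peaks, with 87.6% covered by H1foo and 23.2% by AE4. F2rl3, a thrombin receptor, had 2 H1foo and 4 AE4 peaks and was covered for 51.9% and 57.5%.

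The 8 neuronal and synaptic genes had medians of 63.6% and 35.1%, with an H1foo boundary peak at 8 and an AE4 boundary peak at 7. Unc13a, which primes synaptic vesicles, had 24 and 18 peaks over 47.7 kb and 67.7% and 36.2% covered. Rab3a, a GTPase of synaptic vesicles, had 98.0% of its 3906 bp in H1foo peaks and 86.2% in AE4 peaks, the highest AE4 share of the 133 genes. The peaks over it began 44 bp (H1foo) and 435 bp (AE4) after the start site, so that the 250 bases printed above lay in neither. Slc18a1, a vesicular monoamine transporter at the edge of the block, had 2 and 5 peaks and 1.78% and 5.52% covered.

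Of 9 genes of membrane traffic and glycosylation, 8 had a boundary peak of each list, and the medians were 65.1% and 34.3%. Eps15l1, an endocytic adaptor gene of 80.6 kb, had 31 and 20 peaks with 36.5% and 19.5% covered. Fcho1, which acts early in clathrin-coated pits, had 13 of each with 83.7% and 57.8% covered and an H1foo score of up to 1068. Use1, a SNARE gene of 2885 bp, had 1 of each.

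The 10 mitochondrial and metabolic genes in the block all had an H1foo and 9 an AE4 boundary peak, with medians of 68.8% and 26.4%. Slc25a42, a mitochondrial carrier, had 13 of each with 42.0% and 32.4% covered. Slc27a1, a fatty acid transporter, had 12 of each with 75.2% and 48.6% covered. Isyna1, which makes inositol phosphate, had 3 and 2 peaks with 80.9% and 26.9% covered. Gtpbp3, which modifies mitochondrial transfer RNA, had 10 and 2 peaks with 71.1% and 19.7% covered. In each of the 8 lists the median covered share was higher for H1foo than for AE4, as it was over all genes of the block. The H1foo list is the longer: its peaks covered 2.54 times the bases of AE4 peaks over all assembled chromosomes and 1.70 times in the block. Covered shares at equal list length were not computed.

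Both lists lay mainly inside genes. By peak centre, 29.2% of the H1foo peaks lay within 2 kb of a gene boundary, 54.0% deeper inside a gene and 16.8% outside. For AE4 the shares were 22.7%, 61.7% and 15.6%, and of the bases of the block 16.7%, 45.1% and 38.2%. Sequence outside genes thus held a smaller share of the peaks of each list than of the bases. In the rest of chromosome 8, 30.6% of the peaks of each list lay outside genes.

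Around start sites the lists parted. For the genes with a promoter entry, the position of the start site itself lay in an H1foo peak at 38.1% of genes and in an AE4 peak at 7.96%. The H1foo share was lowest 1000 bp before the start, at 33.6%, and highest 500 bp after it, at 58.4%. The AE4 share was lowest 500 bp before the start, at 6.19%, and highest 3750 bp after it, at 34.5%. AE4 peaks were thus sparse over a wider span around the start, and H1foo peaks were present close to it. The other autosomes, with 15732 genes, had lower levels, also with an AE4 low before the start and an H1foo high after it. There the H1foo share was highest 250 bp after the start, at 10.5%, and the AE4 share was lowest 750 bp before it, at 0.814%. At the start itself the H1foo share in the other autosomes, 8.36%, lay above the 6.77% found 5000 bp before it. In the rest of chromosome 8 these shares were 25.2% and 17.65%. In the block they were 38.1% and 44.25%. The shares of the block before the start ranged from 33.6% to 46.9%, so its share at the start lay within that range.

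At gene ends, H1foo was highest 1250 bp before the end, at 64.6% of genes. AE4 was lowest at the end itself, at 16.8%, and highest 3750 bp before it, at 36.3%. Positions within 5 kb of a start can lie in another gene in so dense a block. The start of the promoter entry was the outer boundary of the gene for 59 of these genes, and the others start at an inner position or differ by some bases.

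**Figure D5:**
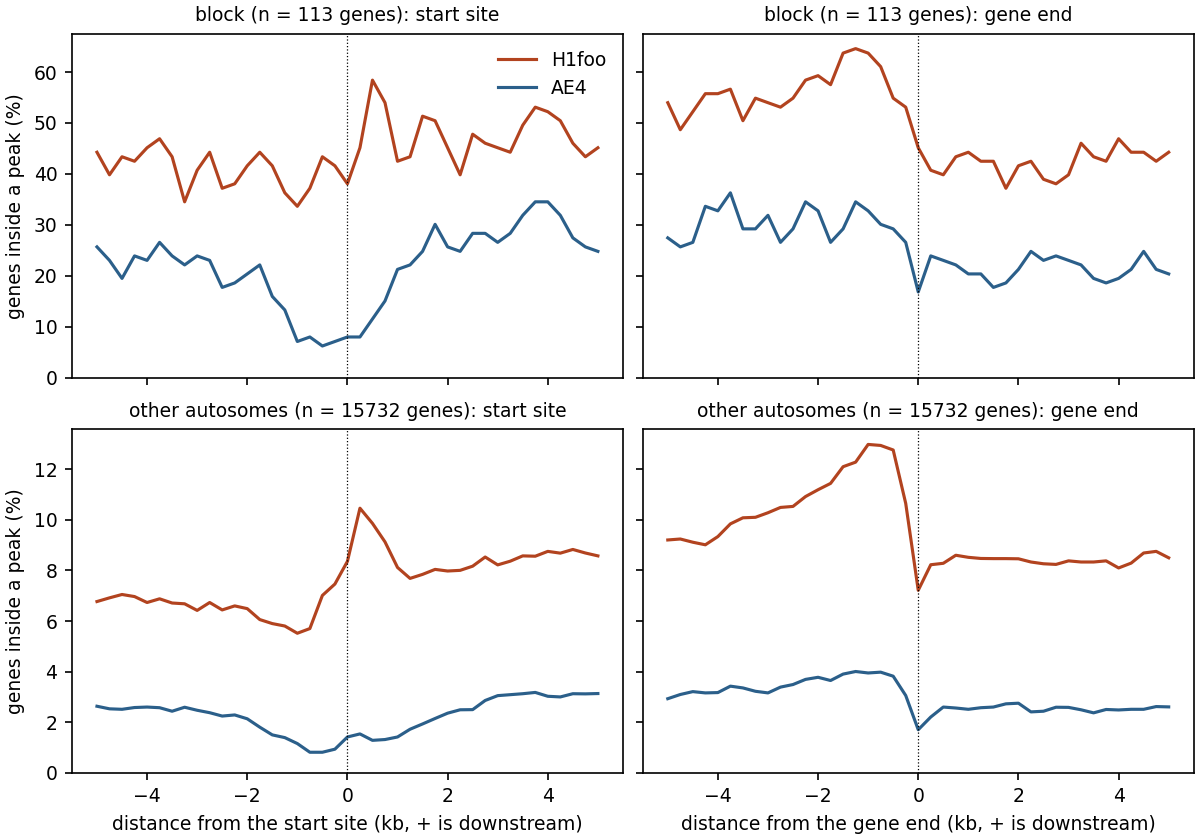
Percent of genes whose position at a given distance lies inside an H1foo or an AE4 peak, every 250 bp up to 5 kb from the start site (left) and the gene end (right), for the genes of the block with a promoter entry (top) and 15732 genes of the other autosomes (bottom); the vertical scales of the rows differ. In the start-site panels AE4 dips around the start in both rows and H1foo has its highest value just after it; in the gene-end panels H1foo is higher still, up to 64.6% in the block and 13.0% in the other autosomes.

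Promoter windows of 300 bases gave the same picture. An H1foo peak overlapped 61 windows or 54.0%, against 12.8% of all 17492 promoters, and an AE4 peak overlapped 13 or 11.5%, against 2.12%. Both overlapped 11 windows or 9.735%, against 1.49% of all promoters, and H1foo alone 50 or 44.25%, against 11.3%. AE4 alone overlapped 2 or 1.77%, against 0.629%, those of Olfr372, an olfactory receptor gene, and F2rl3. Windows under AE4 peaks were poor in CpG, with a median of 1 per 100 bases against 6 in the 100 windows without one. Over all promoters these medians were 1.67 and 4.67. Windows with and without an H1foo peak had 5.33 and 6. The motif GGGCGG stood in 3 of 13 windows with an AE4 peak (23.1%) and in 68 of 100 without, against 23.8% and 46.8% over all promoters. It was in 62.8% of the windows of the block and 46.3% of all promoters, CACCC in 64.6% and 58.5%, and TATAAA in 6.19% and 13.3%. The printed promoters show this range, from Crtc1 with 33 CpG in 250 bases to Pde4c with 1.

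RefSeq placed 6 microRNA hairpins in the block. Mir7068, inside Cherp, lay under peaks of both lists with scores of 341 (H1foo) and 358 (AE4). Mir6769b and Mir7066 lay under H1foo peaks with scores of 416 and 66.0 and under no AE4 peak. Mir7067, Mir1969 and Mir28b lay under no peak.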

How the data were processed

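ChIP-seq peaks of 4 libraries were analysed, 2 for each antibody. Alignment was with Bowtie 1.1.2 on mm10, per the submitters' processing notes. MACS had called the peaks, per the file headers, in a version they do not name. The authors deposited 1 list per antibody, with a score per peak; the sources used here do not say how libraries were combined, and depth is unknown. Peaks were placed by centre, starts counted from 1, and overlap meant at least 1 bp. Genes were 21774 protein-coding spans of RefSeq on GRCm38.p6, matched to the block by their middle; promoters came from RefSeq too. Genes named were those that define the block, those with the highest-scoring peak (10 per list), the largest covered share (5 per list) or the fewest peaks per kb, and the extremes of each role list; others were named after their values were seen. The block, its members and the lists were chosen with earlier results of these data known. Python 3.11.15, numpy 2.4.6, pandas 2.3.3 and scipy 1.17.1 were used, and the overlap code was tested on simulated data. Some genes of the block are not reported here.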

Additional observations from a re-analysis of the deposited data

How the results depend on the processing

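No paired analysis was possible because the lists hold no value per library, and for the same reason no library could be left out. With scores of at least 100 the block held 564 H1foo and 335 AE4 peaks that covered 17.55% and 8.156% of it, and 87.46% of the AE4 and 48.94% of the H1foo peaks overlapped the other list. With an overlap of at least 50% of the peak's own length the H1foo share was 49.05%. Joining peaks under 500 bp apart left 571 H1foo peaks. Counted in covered bases, the density of the block was 3.487 (H1foo) and 3.615 (AE4) times that of the rest of chromosome 8 and 9.452 and 15.36 times that of the other autosomes. In peak numbers, over bins with 15 or more genes only, the ratios were 1.166, 1.325, 2.151 and 3.864. AE4 had a peak within 2 kb of the start site at 61 of the genes with a strand. The busiest bin of 200 kb started at 70.2 Mb in both lists and the busiest AE4 bin of 50 kb at 70.25 Mb. With H1foo cut to the length of the AE4 list, 749 of its peaks stayed in the block and the ratio of H1foo to AE4 peaks was 0.9665. At equal list length H1foo thus did not have the larger number of peaks in the block. Counts by bin and by gene were not recomputed. The other 12 alternatives moved their values by less than 1.5 times or within their intervals.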
